A study of Mus musculus with 35 samples.

Results

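Pou5f1 codes for OCT4, the POU-family transcription factor that anchors the pluripotent state. In mouse genome build GRCm38 it lies on the plus strand at chr17:35506032-35510777, a span of 4746 bp. This account follows the chromatin of the gene and of 50 kb to each side of it through fibroblast reprogramming. Every peak of 22 deposited ChIP-seq peak lists that touched this interval was taken, which gave 161 of 902871 peaks on chromosomes 1 to 19 and X. Of these, 107 were peaks of acetylated lysine 27 of histone H3 (H3K27ac) and 54 were peaks of the transcription factor KLF4. By position, 54 lay wholly upstream of the gene, 27 touched it and 80 lay wholly downstream.

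The fibroblasts (MEF, mouse embryonic fibroblasts) came from C57BL/6 x 129 mice that carry an inducible OKSM cassette, with the coding sequences of Pou5f1, Klf4, Sox2 and Myc, in Col1a1 and the M2rtTA transactivator in ROSA26. The labels of the MEF libraries give a medium without doxycycline, while that of the MEF input, not analysed here, names the medium with it. Cells at day 3, day 6 and day 9 had the same genotype and were grown in ESC medium with doxycycline at 1 µg/ml and ascorbic acid at 50 µg/ml. Day 3 cells were unsorted, and day 6 and day 9 cells were sorted for SSEA1, a surface marker gained on the way to pluripotency. Embryonic stem cells (ESC) were the V6.5 line, a single line of the same mixed background, grown on irradiated feeder cells in serum and LIF. For ESC in 2i, 1 µM of a MEK inhibitor and 3 µM of a GSK3 inhibitor were added. H3K27ac had 2 MEF, 3 day 3, 3 day 6, 2 day 9 and 2 ESC libraries. KLF4 had 10 libraries, 2 for each of the 3 days and 2 for ESC in either medium. KLF4 in MEF was not analysed here. The series' design text calls the replicates biological.

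H3K27ac marks active promoters and enhancers. The region before Pou5f1 is known for a proximal and a distal enhancer, and in naive pluripotent cells the distal enhancer is bound by OCT4, SOX2, NANOG and KLF factors. KLF4 is a zinc-finger factor that recognises GC-rich and CACCC sequences. Because the OKSM cassette holds the coding sequence of Pou5f1, reads from the cassette can align to the coding exons of the endogenous gene, whereas sequence before the gene is not part of a coding sequence. Upstream regions are therefore given apart from those over the gene.

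A library's value here is the number of base pairs of a window that lay under a peak of its list. The lists of H3K27ac held 17493 to 22462 peaks at day 6, 41471 to 50836 at day 3, 43974 to 45506 at day 9 and 81231 to 88347 in MEF and ESC. Those of KLF4 held 21129 to 34640. Read depth is unknown, so a window without a peak is not shown to be without signal. The labelled stages were set against markers, read as an H3K27ac peak in the gene or the 5 kb before it. Of 6 fibroblast genes, 6 had a peak in each MEF library, 4 to 5 at day 3, 2 to 3 at day 6, 3 at day 9 and 1 to 2 in ESC. Of 7 pluripotency genes, 2 had a peak in each MEF, day 3 and day 6 library, and all 7 in each day 9 and ESC library. Of Krt14, Cd34 and Ptprc, markers of other cells, 2 had a peak in MEF and day 9, 1 at day 3 and none at day 6 or in ESC. H3K27ac batches and stages overlapped only in part: MEF and ESC libraries were all of batch DG-3458, day 9 libraries all of EA-3702, and day 3 and day 6 libraries were of both.

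Sequence of the gene start is shown because KLF4 and H3K27ac peaks met there, and sequence of the shared start region of Tcf19 and Cchcr1 because it held the other KLF4 region found in all 10 libraries. Both are from RefSeq (GRCm38.p6), 250 bases before to 50 after an annotated start, 5′ to 3′ on the plus strand. Capitals mark matches to 2 KLF4 motifs, CACCC and GGGNGNGG, searched on both strands.
Pou5f1 start, chr17:35505782-35506081: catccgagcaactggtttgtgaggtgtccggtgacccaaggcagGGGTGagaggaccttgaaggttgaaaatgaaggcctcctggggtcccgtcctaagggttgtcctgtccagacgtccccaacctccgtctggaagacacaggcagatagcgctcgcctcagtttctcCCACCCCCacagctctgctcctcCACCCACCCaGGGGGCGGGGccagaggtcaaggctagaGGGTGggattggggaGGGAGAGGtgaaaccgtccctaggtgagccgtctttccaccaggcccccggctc
Cchcr1 second start, chr17:35517003-35517302: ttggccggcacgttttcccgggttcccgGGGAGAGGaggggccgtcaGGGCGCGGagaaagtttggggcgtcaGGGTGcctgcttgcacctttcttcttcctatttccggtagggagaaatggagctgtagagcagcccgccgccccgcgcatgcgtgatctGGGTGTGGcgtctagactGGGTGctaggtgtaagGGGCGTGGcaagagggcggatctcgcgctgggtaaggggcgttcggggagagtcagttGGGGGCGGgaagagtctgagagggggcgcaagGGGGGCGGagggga

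The Pou5f1 start sequence held 5 matches of CACCC, 3 as printed and 2 as the reverse complement, and 4 matches of GGGNGNGG, of which 1 overlapped a CACCC match. Over 32619 RefSeq promoters of the same length, CACCC was found in 57.7% and GGGNGNGG in 49.8%. As many as 5 CACCC matches were found in 1.03% of promoters, and as many as 4 GGGNGNGG matches in 12.6%. The octamer ATGCAAAT of POU factors (in 1.75% of promoters) and the SOX2 motif ACAATG (in 12.2%) had no match in the Pou5f1 start sequence, which says only that these letters are not in this window. The Cchcr1 sequence held 3 matches of CACCC and 6 of GGGNGNGG, counts reached by 9.4% and 5.49% of promoters. A second annotated start inside Pou5f1, at chr17:35508557-35508856 with its flanks, held 1 match of CACCC, 1 of ACAATG, and none of GGGNGNGG or ATGCAAAT.

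The number of H3K27ac peaks in the locus was at its lowest at day 6 and at its highest in ESC. The lists had 6 and 6 peaks within 50 kb in MEF, 5, 5 and 7 at day 3, 0, 0 and 1 at day 6, 11 and 8 at day 9, and 29 and 29 in ESC. Day 6 libraries were the lowest and ESC libraries the highest, with no overlap between either and the other stages. The share of genes with this order was not computed. Over all genes the median count was also lowest at day 6, at 2 in each list, and it was 6 in each ESC list. The day 6 lists were also the shortest, and 29.4%, 32.2% and 27.5% of 17274 protein-coding genes had no peak within 50 kb in them. A count of 29 or more in ESC was reached by 3.35% and 3.59% of genes. The MEF counts equalled the median of 6 over genes in these lists, and the day 3 counts were above medians of 4, 4 and 3. KLF4 lists had 6 and 5 peaks at day 3, 3 and 2 at day 6, 2 and 3 at day 9, 5 and 9 in ESC, and 7 and 12 in ESC in 2i.

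**Figure D1:**
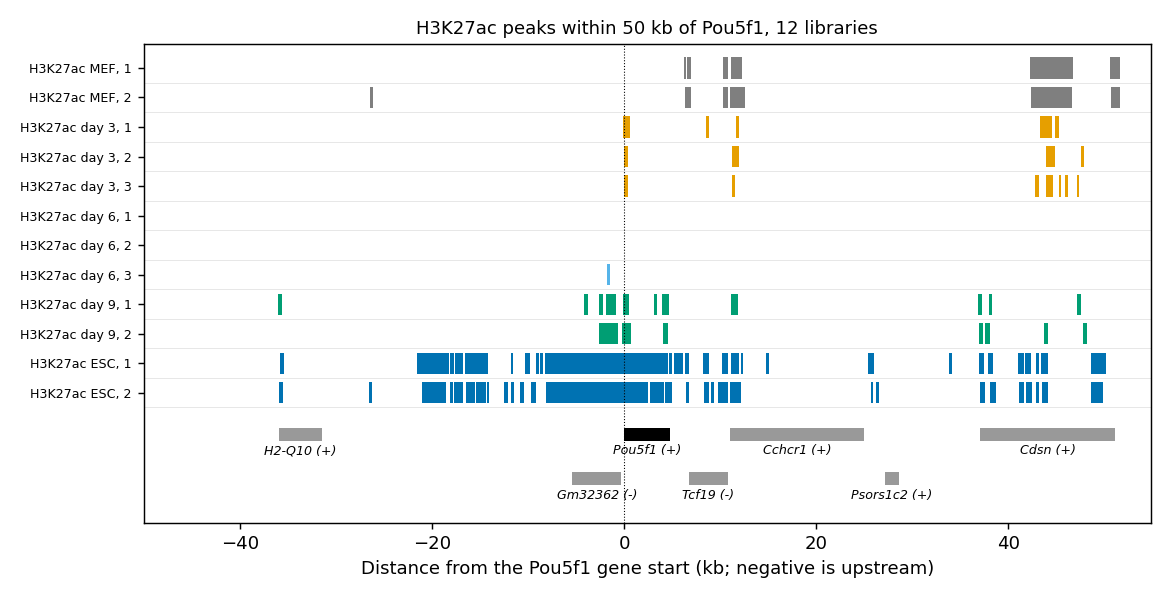
H3K27ac peaks of the 12 libraries (rows, stage and replicate number) as bars against distance from the Pou5f1 start in kb, with neighbouring genes and their strands below. The 2 ESC libraries hold 29 peaks each, spread to both sides of the gene, the MEF libraries hold 6 each, nearly all downstream, and 2 of 3 day 6 libraries hold none.

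When peaks of the 12 H3K27ac lists that share at least 1 bp were merged, the locus held 32 regions. Of these, 19 had a peak in at least 2 libraries of 1 stage and are the regions described here: 7 wholly upstream, 1 over the gene and 11 wholly downstream. The KLF4 lists gave 17 regions, of which 7 met that rule: 4 wholly upstream, 2 over the gene and 1 downstream. Distances are in bp from the annotated start.

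The distal upstream part, from 50 to 5 kb before the gene, was acetylated in ESC. The 2 ESC libraries had 11602 and 12051 bp under peaks there. The 10 libraries of the other stages ranged from 0 to 416 bp. The main block of ESC regions ran from 21543 to 14045 bp upstream in 4 merged regions, in which both ESC libraries and no other had a peak. The widest of them (chr17:35484489-35487796 in ESC replicate 1) had an authors' fold enrichment of 7.48 and 7.92 in the 2 ESC lists. Smaller regions at 11825 to 11460 bp and 9680 to 8911 bp upstream also had a peak in both ESC libraries and in no other. None of the peaks in these smaller regions reached a q-value of 0.01. A region at 36051 to 35440 bp upstream, at the start of the class I histocompatibility gene H2-Q10, had a peak in both ESC libraries and in day 9 replicate 1. Over all merged H3K27ac regions of the genome with a peak in at least 2 libraries of 1 stage, 29.6% had a peak in both ESC libraries and in no MEF library. This is looser than a peak in both ESC libraries and in no other, for which no share was computed.

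KLF4 was scarce in the distal part. No day 3, day 6 or day 9 library had a KLF4 peak from 50 to 5 kb upstream, ESC libraries covered 0 and 150 bp, and ESC in 2i libraries covered 466 and 833 bp. Single-library KLF4 peaks of ESC in 2i lay at 35883, 34728, 19043 and 8789 bp upstream, and no second library had a peak in any of the 4 regions.

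Before the gene start, H3K27ac was absent from the MEF lists, almost absent at day 3 and day 6, partial at day 9 and complete in ESC. In the 5 kb window, the 2 MEF libraries had 0 and 0 bp under a peak. The 3 day 3 libraries had 92, 70 and 4 bp, all from the edge of a peak over the gene start. The 3 day 6 libraries had 0, 0 and 316 bp. Day 9 libraries had 2052 and 2131 bp, above every earlier library, and ESC libraries had 5000 and 5000 bp, above all the others. With the 17493 top peaks of each list, the order of day 9 and ESC was kept, at 1135 and 1485 bp at day 9 and 5000 and 5000 bp in ESC, and day 3 had 92, 0 and 0 bp. Stages accounted for 99.8% of the variance in covered base pairs over 12 libraries (exact permutation test over all labelings, p = 0.0015, Benjamini-Hochberg adjusted p over 10625 genes = 0.00707). A difference between stages was common: 65.9% of the genes tested passed, with a median of 89.3% of variance between stages. The test is over the 5 stages at once. Between 3 and 3 libraries the smallest exact p is 0.1, so no pair of stages was tested.

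Values within batches bear on this, since stage and batch overlap only in part. Within batch EA-3702 the window had 92 bp at day 3, 316 bp at day 6, and 2052 and 2131 bp at day 9. Within DG-3458 it had 0 and 0 bp in MEF, 70 and 4 bp at day 3, 0 and 0 bp at day 6, and 5000 and 5000 bp in ESC. With labels permuted only within batches, the unadjusted exact p was 0.00635. Scored only as a peak present or not, the window had a stage share of 75% and an unadjusted exact permutation p of 0.0788. On that scale all 3 day 3 libraries and day 6 replicate 3 have a peak, as do those of day 9 and ESC.

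By presence of a peak, the window was in the minority of genes. Pou5f1 had a peak in both ESC libraries and in no MEF library, as did 5.24% of 17274 genes, and it also had peaks in both day 9 libraries, as did 1.92%. A window covered over its whole length in both ESC libraries was found for 36 genes, or 0.208%. A window with peaks in all 3 day 3 libraries and no MEF library was found for 0.55% of genes, and peaks in all day 3 and day 9 libraries but at most 1 of day 6 for 5.09%. Pou5f1 met the day 3 part of both by the edges of its gene-start peaks, in day 3 replicate 3 by 4 bp of a peak that did not reach a q-value of 0.01. Both day 9 libraries also had peaks lying wholly upstream. In ESC the peak behind this cover ran from 8286 bp upstream to 4550 bp after the start in replicate 1, a width of 12837 bp with an authors' fold of 38.3. In replicate 2 it ran from 8173 bp upstream to 2509 bp after the start, 10683 bp wide with a fold of 27.7. They ranked 227 of 81971 and 407 of 81231 by score within their lists.

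**Figure D2:**
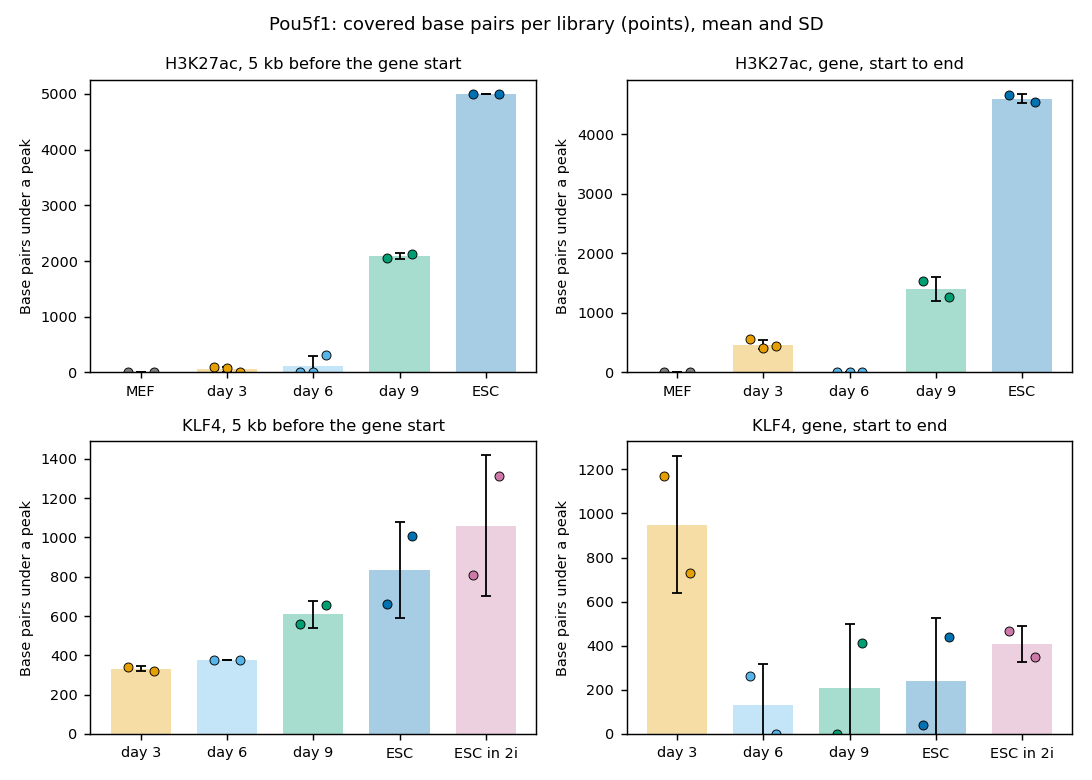
Base pairs under a peak (y axis, from 0) in the 5 kb before the Pou5f1 start and in the gene, by stage, for H3K27ac (top) and KLF4 (bottom). Points are libraries, bars the mean and lines the SD of 2 or 3 libraries; upstream H3K27ac stays at or below 316 bp to day 6 and reaches 2052 to 2131 bp at day 9 and 5000 bp in ESC, and upstream KLF4 is present in all 10 libraries.

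At day 9 the upstream acetylation was in blocks rather than in a single domain. Both day 9 libraries had a peak at about the same place, from 1939 to 805 bp upstream (fold 6.47) in replicate 1 and from 1963 to 693 bp upstream (fold 7.23) in replicate 2. A second block lay at 2625 to 2226 bp upstream in replicate 1 and 2657 to 2012 bp in replicate 2. Replicate 1 alone had a further weak peak at 4146 to 3723 bp upstream (fold 2.40, deposited −log10 q of 1.33). The only day 6 peak of the whole locus, in replicate 3, lay at 1762 to 1447 bp upstream, inside the stronger day 9 block. Its deposited −log10 q was 0.593 and it ranked 21271 of 22462, so it did not reach a q-value of 0.01.

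KLF4 had a region about 2 kb before the gene that was present at every stage measured. All 10 libraries had a peak in the region chr17:35503768-35504402, from 2264 to 1630 bp upstream, and the 255 bp at chr17:35503927-35504181 were under a peak in all 10. The region lies within Gm32362, a long noncoding RNA gene on the minus strand, and ChIP-seq does not tell the strands apart. Its sequence was not used here. The authors' fold was 6.04 and 2.13 at day 3, 12.3 and 7.87 at day 6, 24.4 and 32.0 at day 9, 10.5 and 10.4 in ESC, and 3.53 and 12.003 in ESC in 2i. Folds of separate lists are not on a shared scale, so the place of the peak in its own list is given too. The peak was in the top 0.292% and 0.0885% of the day 9 lists, in the top 5.97% and 4.91% at day 6, and in the top 1.72% and 0.358% in ESC. In ESC in 2i it was at 41.5% in replicate 1 and 0.203% in replicate 2, so these replicates differ. At day 3 it was at 26% in replicate 1 and 95% in replicate 2, where its deposited −log10 q was 0. In 9 of the 10 libraries the region had a peak with a q-value of at most 0.01. ESC replicate 1 also had a weaker peak there, and its values above are those of the stronger peak.

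A KLF4 peak in the 5 kb window in all 10 libraries was found for 9.55% of genes, and in both day 3 libraries for 20.1%. Over merged KLF4 regions of the genome, 11.3% had a peak in all 10 libraries. The region at Pou5f1 was bound in lists of day 3 and day 6 in which its H3K27ac was largely missing. H3K27ac peaks covered none of its 635 bp in 2 MEF, 3 day 3 and 2 day 6 libraries and 133 bp in day 6 replicate 3. They covered 349 and 587 bp at day 9 and all 635 bp in both ESC libraries. Genes with an upstream KLF4 peak in all 10 libraries and an H3K27ac peak in both day 9 and both ESC libraries but no MEF library numbered 44, or 0.255%. Taken singly, the KLF4 part of this rule was met by 9.55% of genes and the H3K27ac part by 1.92%. Among the 1649 genes with an upstream KLF4 peak in all 10 libraries, 3.15% had the H3K27ac pattern of ESC and not MEF. Over all 17274 genes this H3K27ac pattern was more common, at 5.24%. H3K27ac and KLF4 came from separate libraries, and whether the same cells carried both was not tested. Day 6 and day 9 libraries were sorted and day 3 libraries were not, so stage and sort cannot be told apart between them. In a bulk sample, a mark in fewer cells and a weaker mark in all cells cannot be told apart either.

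**Figure D3:**
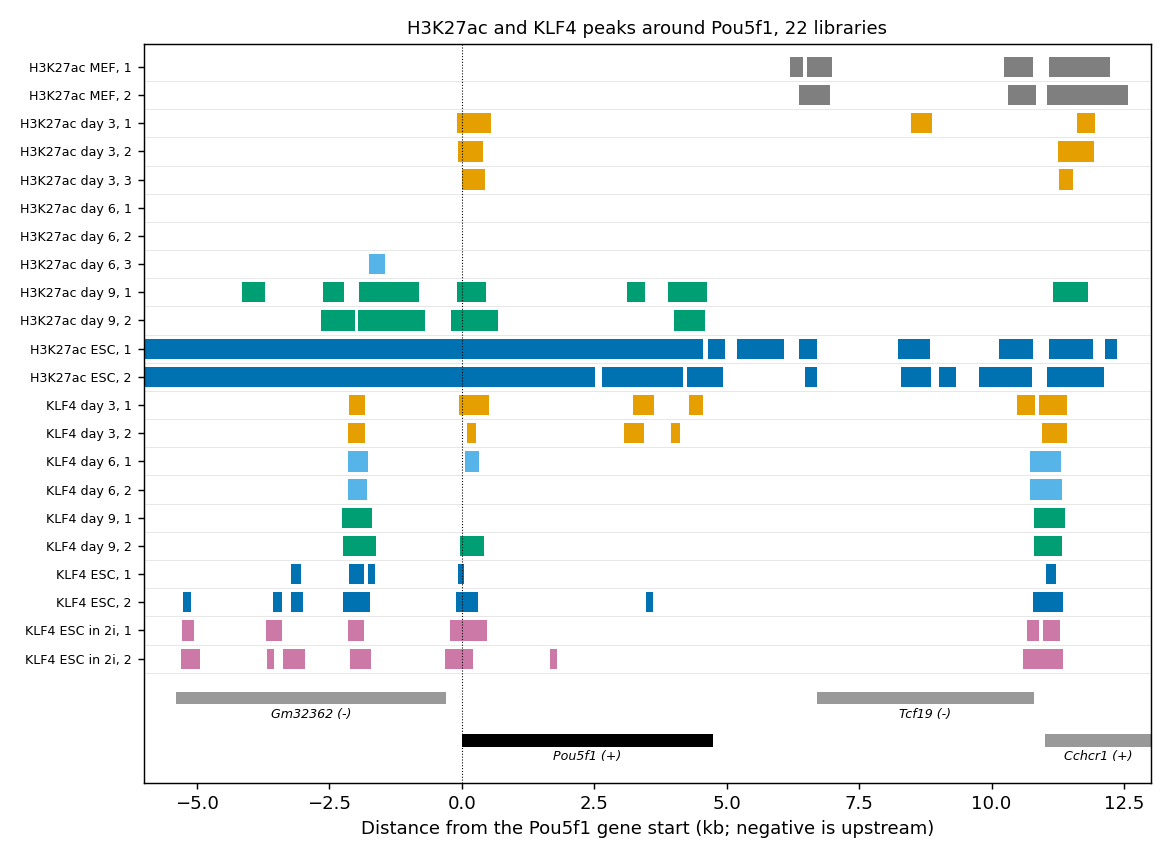
Peaks of all 22 libraries (rows) from 6 kb before to 13 kb after the Pou5f1 start (x axis, kb), with genes below. KLF4 bars stand in every KLF4 row near 2 kb upstream and near 11 kb downstream. H3K27ac bars reach well upstream at day 9 and in ESC, with 1 upstream bar at day 6, and those of day 3 reach at most 92 bp before the start.

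Farther upstream, to the outer edge of the window, KLF4 peaks were found in ESC with or without 2i and in no library of day 3, day 6 or day 9. A region at 5311 to 4946 bp upstream (chr17:35500721-35501086) had a peak in both ESC in 2i libraries and in ESC replicate 2. The deposited q-value was at most 0.01 in both 2i libraries and not in ESC replicate 2, and the fold was 4.41 and 7.24 in 2i. A region at 3378 to 2954 bp upstream (chr17:35502654-35503078) had a peak in both ESC libraries and in 2i replicate 2, each with a q-value of at most 0.01. Between them, the region at 3698 to 3397 bp had a peak in ESC replicate 2 and both 2i libraries, and none of these reached a q-value of 0.01. H3K27ac covered all 3 regions over their whole length in both ESC libraries and not at all in MEF, day 3, day 6 or day 9.

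Summed over the window, KLF4 covered 342 and 322 bp at day 3, 375 and 374 bp at day 6, 560 and 658 bp at day 9, 662 and 1009 bp in ESC, and 808 and 1314 bp in ESC in 2i. The means of neighbouring stages from day 9 on, 609 ± 69.3, 836 ± 245 and 1061 ± 358 bp (SD, n = 2 each), differed by less than the SD of the ESC libraries, and ESC and 2i overlapped. Stages accounted for 79.8% of the variance (exact permutation test, p = 0.0656, Benjamini-Hochberg adjusted p over 7777 genes = 0.583), so the difference between stages did not pass the test. None of the 7777 genes passed in this window (0%), and 642 had an unadjusted exact p of at most 0.05. The smallest exact permutation p that 10 libraries allow is 0.00106, and the adjusted p at that value was 0.469. The adjusted test could therefore call no gene here, and a gene that did not pass is not shown to be alike between stages. Within batch EA-3702 the values were 342, 375, 560 and 658, and 808 bp for day 3, day 6, day 9 and 2i, and within DG-4040 they were 322 and 374 bp for day 3 and day 6. The unadjusted exact p with labels permuted within batches was 0.0167. The other batches held 1 library each.

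At the gene start itself, H3K27ac and KLF4 were both found at day 3. H3K27ac peaks ran from 92 bp before to 553 bp after the start in day 3 replicate 1 (fold 6.33), from 70 bp before to 401 bp after it in replicate 2 (fold 4.01), and from 4 bp before to 438 bp after it in replicate 3 (fold 2.75). The first 2 had a q-value of at most 0.01 and the third did not. No MEF and no day 6 library had a peak at the start. Day 9 peaks reached from 93 bp before to 448 bp after it (fold 4.39) and from 214 bp before to 685 bp after it (fold 6.07). KLF4 peaks over chr17:35505721-35506540 were found in 8 of 10 libraries: both of day 3, ESC and ESC in 2i, and 1 each of day 6 and day 9. Of these, 5 had a q-value of at most 0.01, both of day 3 and 1 each of day 9, ESC and ESC in 2i. In day 3 replicate 2 the KLF4 peak lay wholly inside the gene, from 90 to 271 bp after the start.

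Over the whole gene, H3K27ac covered 0 and 0 bp in MEF, 554, 402 and 439 bp at day 3, 0 bp in each of 3 libraries at day 6, 1540 and 1258 bp at day 9, and 4652 and 4539 bp in ESC. Day 3 libraries stood above all MEF and day 6 libraries and below both day 9 libraries, with no overlap, as in 0.879% of 12625 genes. The order did not hold when weaker peaks were left out. With the 17493 top peaks of each list, the gene had 554, 0 and 0 bp at day 3, 0 and 686 bp at day 9, and 4551 and 4037 bp in ESC, and the stage share was 98.1% (unadjusted exact p = 0.0242). With peaks of a q-value of at most 0.01, day 3 had 554, 402 and 0 bp and day 9 had 1188 and 686 bp. Stages accounted for 99.8% of the variance (exact permutation test, p = 7.22e-05, Benjamini-Hochberg adjusted p over 12625 genes = 0.000993), where 76.9% of the genes tested passed. H3K27ac in all day 3 and day 9 libraries and in no day 6 library was found in the gene window of 2.03% of genes, and in both ESC libraries but no MEF library in that of 5.69%.

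Counting all deposited peaks, KLF4 in the gene was highest at day 3. It covered 1169 and 729 bp at day 3, 261 and 0 bp at day 6, 0 and 414 bp at day 9, 42 and 441 bp in ESC, and 466 and 350 bp in ESC in 2i. Both day 3 libraries stood above all 8 others, as in 9.93% of 10615 genes. With peaks of a q-value of at most 0.01 the day 3 libraries no longer stood apart: day 3 had 509 and 182 bp, day 6 none, day 9 0 and 414 bp, ESC 0 and 441 bp, and ESC in 2i 466 and 0 bp. The stage share was 74.2% and did not pass the test (exact permutation test, p = 0.0688, adjusted p over 10615 genes = 0.394), and it was 26.7% at that q-value (unadjusted exact p = 0.683). None of the 10615 genes passed (0%), and 1536 had an unadjusted exact p of at most 0.05. Here too no gene could pass, since the adjusted p at the smallest exact permutation p of 0.00106 was 0.242. Inside the gene, a KLF4 region at chr17:35509084-35509655, from 3052 to 3623 bp after the start, had a peak in both day 3 libraries and in ESC replicate 2. At day 3 neither peak reached a q-value of 0.01. Peaks at 4281 to 4554 bp in day 3 replicate 1 and at 3952 to 4113 bp in replicate 2 did not reach it either. A KLF4 peak in the gene window in all 10 libraries was found for 18.4% of genes, and Pou5f1 was not among them.

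The share of the day 3 signal over the gene that comes from the cassette was not tested, since exon positions were not used here. Sox2 and Klf4, also in the cassette, are given for comparison, and Myc was not analysed here. In the Sox2 gene, KLF4 covered 583 and 483 bp at day 3, none at day 6, 24 and 10 bp at day 9, and 0 and 356 bp in ESC. H3K27ac in Sox2 covered 400 and 348 bp in MEF, none at day 3 or day 6, and 825 and 793 bp at day 9. In the Klf4 gene, KLF4 covered 2129 and 673 bp at day 3 and 314 and 485 bp at day 6, and it covered 1476 and 1396 bp in ESC in 2i. H3K27ac in Klf4 covered 2971 and 2985 bp in MEF and 3626, 3199 and 2393 bp at day 3. It covered 1283, 1270 and 1828 bp at day 6, 3378 and 3423 bp at day 9, and 4174 and 4039 bp in ESC. KLF4 cover of the gene was higher in both day 3 libraries than in either day 6 library for Pou5f1, Sox2 and Klf4. The same held for 19.8% of 10615 genes. The day 3 KLF4 lists are longer (29493 and 34404 peaks) than those of day 6 (22525 and 23954). H3K27ac at day 3 was absent from Sox2 and present in Klf4. Whether the cassette adds to any of these values was not tested.

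**Figure D4:**
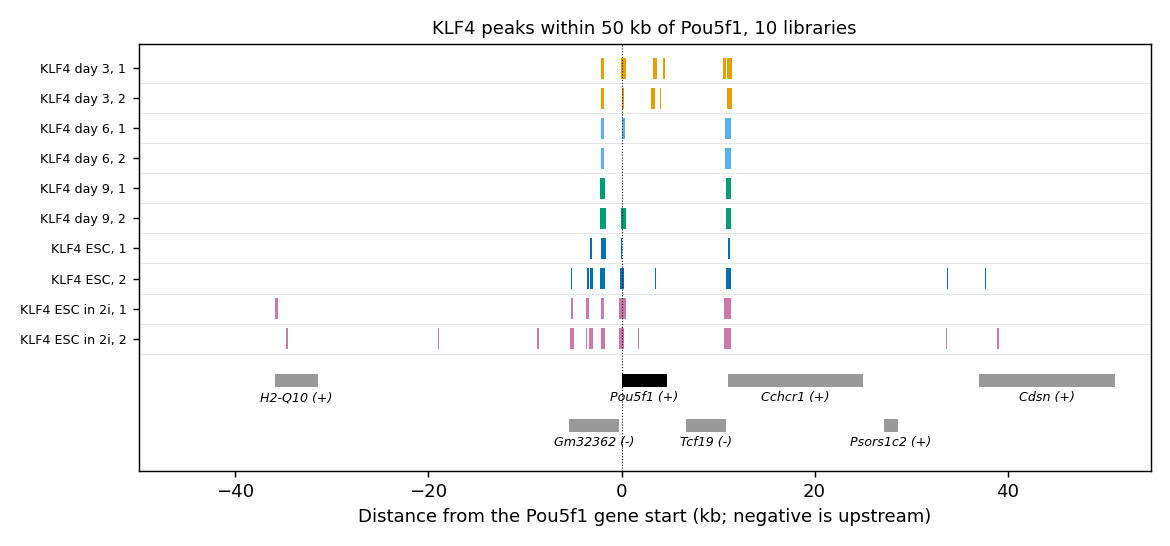
KLF4 peaks of the 10 libraries (rows) as bars against distance from the Pou5f1 start in kb, with neighbouring genes below. Bars near 2 kb upstream and 11 kb downstream recur in all 10 libraries, day 3 libraries alone have more than 1 bar between 3 and 5 kb after the start, and bars beyond 5 kb upstream belong to ESC or ESC in 2i.

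Downstream of the gene the order of stages was another. In the 50 kb after the gene, H3K27ac covered 7944 and 7994 bp in MEF, 1841 to 2425 bp at day 3 (3 libraries), 0 bp in each day 6 library, 1755 and 1798 bp at day 9, and 8410 and 9789 bp in ESC. MEF and ESC both had high cover, and the days between them were low. The whole lists also covered the most in MEF (82.8 and 83.5 Mb) and ESC (66.3 and 62.3 Mb). They covered 23.8 to 38.4 Mb at day 3, 9.21 to 19.9 Mb at day 6, and 48.9 and 49.5 Mb at day 9. Whether the downstream order is particular to this locus was not tested. At the start of Tcf19 and Cchcr1, which face away from each other, the H3K27ac region from 11049 to 12582 bp after the Pou5f1 start had a peak in both MEF, all 3 day 3, 1 of 2 day 9 and both ESC libraries. Tcf19 codes for a transcription factor and Cchcr1 for a coiled-coil protein. A region from 6194 to 6994 bp, at the 3′ end of Tcf19, and a region from 9758 to 10834 bp, at its 5′ end, had peaks in both MEF and both ESC libraries and in no library of the days between.

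KLF4 was found at these paired starts in all 10 libraries. The region chr17:35516508-35517458 lay 10476 to 11426 bp after the Pou5f1 start, and each of the 10 libraries had a peak there with a q-value of at most 0.01. The 176 bp at chr17:35517065-35517240 were covered in all 10 and lie wholly within the Cchcr1 sequence printed above. Unlike the region 2 kb before Pou5f1, this region had H3K27ac in MEF, where 634 and 737 of its 951 bp were covered. It had 0, 178 and 157 bp at day 3, none at day 6, 267 and 0 bp at day 9, and 650 and 671 bp in ESC.

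Farther out, Cdsn, which codes for corneodesmosin of the skin, held the largest MEF peak of the locus. It ran from 42202 to 46730 bp after the Pou5f1 start in replicate 1 (chr17:35548234-35552762, fold 23.8) and from 42323 to 46616 bp in replicate 2 (fold 17.7). The merged region there also had peaks in all 3 day 3, 1 of 2 day 9 and both ESC libraries and in no day 6 library, and the day 3 and ESC peaks inside it were narrower. From 50561 to 51648 bp lay a region found in MEF alone, in both libraries. In ESC, peaks of both libraries were found at 40969 to 41599 bp and at 48554 to 50127 bp, where MEF had none. At the start of Cdsn, regions from 36872 to 37521 bp and from 37533 to 38711 bp had peaks in both day 9 and both ESC libraries. A region at 25679 to 26004 bp, before Psors1c2, had peaks in both ESC libraries. A region from 8235 to 8880 bp, inside Tcf19, had peaks in both ESC libraries and in day 3 replicate 1. The genes Psors1c2 and H2-Q10 had no H3K27ac peak in MEF, day 3 or day 6 in the gene or the 5 kb before it.

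Other genes of the pluripotency network were read in the same upstream window. The list has 18 genes, of which 12 have a strand in the reference table and 9 had cover in at least 2 H3K27ac libraries. Of these 9, 8 passed the adjusted test between stages, against 65.9% of all genes, with a median stage share of 99.4% beside 89.3% over all genes. Sox2 had cover in ESC alone, and Zfp42, Utf1 and Tdgf1 at day 9 and in ESC alone. Such genes entered the test only through the stages where they are high, which by itself gives a high stage share. The list was also chosen with earlier results of these data known, so its contrast with all genes is only a description. In the gene window, 12 of 12 passed, against 76.9%, with the same limits. In the KLF4 windows none passed, as for all genes, since no adjusted p there could reach the threshold. An upstream H3K27ac peak in both ESC libraries and in no MEF library was found for 6 of the 12, against 5.24% of all genes: Sox2, Tfcp2l1, Zfp42, Utf1, Tdgf1 and Fgf4. All but Sox2 also had peaks in both day 9 libraries, against 1.92%. For Tfcp2l1 these covered only 161 and 50 bp of the window, and for Utf1 only 38 and 85 bp. Peaks in all 3 day 3 libraries and no MEF library were found for Fgf4 alone of the 12, against 0.55%.

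The values of Tdgf1 and Fgf4, which code for a co-receptor and a growth factor of early embryonic cells, were near those of Pou5f1. Tdgf1 had 0 bp in each MEF, day 3 and day 6 library, 2237 and 1945 bp at day 9, and 5000 and 5000 bp in ESC. Fgf4 had 0 and 0 bp in MEF, 407, 544 and 147 bp at day 3, 48, 204 and 91 bp at day 6, 2756 and 2227 bp at day 9, and 5000 and 4835 bp in ESC. Zfp42, a zinc-finger gene used as a marker of naive cells, had 474 and 849 bp at day 9 and 4843 and 4698 bp in ESC, and 0 bp in every other library. Sox2 had 4214 and 4189 bp in ESC and 0 bp in the other 10 libraries. Nanog already had 1841 and 1744 bp in MEF, and 4972 and 5000 bp in ESC. An upstream KLF4 peak in all 10 libraries was shared by Pou5f1 with 5 of the 12, Nanog, Klf2, Klf4, Zfp42 and Fgf4, against 9.55% of all genes. Tdgf1 was not among them: its KLF4 cover was 171 and 98 bp at day 3, 0 and 189 bp at day 6, and 1302 and 873 bp at day 9.

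**Figure D5:**
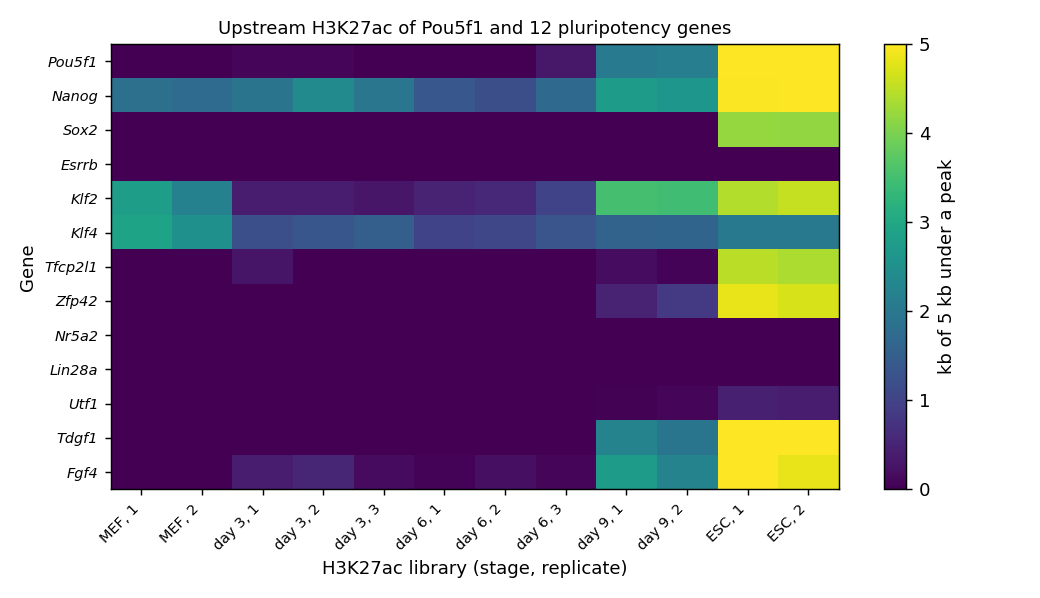
Upstream H3K27ac cover (colour, kb of the 5 kb before the gene start under a peak) of Pou5f1 and 12 other pluripotency genes (rows) in the 12 libraries (columns). Pou5f1, Tdgf1 and Fgf4 share 1945 to 2756 bp at day 9 and nearly full cover in ESC, Zfp42 and Sox2 are high in ESC and low or at 0 at day 9, and Nanog, Klf2 and Klf4 have cover in MEF.

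The 5 protein-coding genes whose upstream H3K27ac profile over the 12 libraries was most like that of Pou5f1, by Pearson correlation, were Rpl5 (0.9983), Tdgf1 (0.9981), Arih2 (0.9959), Nodal (0.9958) and Lrrc2 (0.9958). The 12 points share libraries and list lengths, and the correlation is a description. It was at least 0.99 for 26 of 10624 genes. The windows of Tdgf1 and Lrrc2, at chr9:110946159-110951158 and chr9:110946545-110951544, overlap and so count nearly the same peaks. Nodal, a ligand of the TGF-beta family, had 0 and 0 bp in MEF, 363, 515 and 328 bp at day 3, 411, 210 and 664 bp at day 6, 2045 and 2547 bp at day 9, and 4945 and 5000 bp in ESC. Rpl5, a ribosomal protein gene, had the same profile at a lower level, with 605 and 541 bp at day 9 and 1410 and 1508 bp in ESC.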

How the data were processed

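Crosslinked chromatin was sonicated, precipitated with antibodies to H3K27ac or KLF4 and sequenced single-end, per the labels' protocols. The submitters' processing notes name cutadapt 1.8.1, Bowtie2 2.2.5, deepTools 2.3.6, MACS2 2.1.1 and the build mm10, with no settings. The authors deposited 1 list of peaks per library, so peaks were called per sample. The authors' columns for a peak are its score, its fold over background (a ratio), and its p-value and q-value as −log10. The lowest deposited −log10 p over all lists was 2.00, so weak peaks are included. The 13 input libraries were not analysed here. No 2 lists shared more than 15 identical intervals.

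Peak names inside both DG-3458 day 6 lists carry exchanged replicate numbers, and neither list has a peak in the locus.

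Gene positions are from a RefSeq table of GRCm38.p6, the assembly that mm10 names. Strand came from RefSeq promoter entries, found for 17274 of 21631 protein-coding genes of chromosomes 1 to 19 and X. The share of variance between stages was tested two-sided by exact permutation of the library labels for every gene, with Benjamini-Hochberg adjustment over genes covered in at least 2 libraries and a threshold of 0.05 (Python 3.11.15, numpy 2.4.6, pandas 2.3.3). The code was tested on simulated data. Scores, folds, p and q rank or describe peaks within a list. Regions are merged peaks sharing at least 1 bp, and those with a peak in at least 2 libraries of 1 stage are named. So are the protein-coding neighbours, the 5 genes most like Pou5f1 and a list of pluripotency genes. The gene, the lists and the rules were chosen with earlier results of these data known. Alternatives were the top 50% of each list, the same number of top peaks (17493 for H3K27ac, 21129 for KLF4), a q-value of at most 0.01, presence of a peak, cover relative to the list, permutation within batches or replicate numbers, windows of 2 and 10 kb, merging at 50% of the shorter peak, regions of any library and leaving out each library. A window without its last 500 bp was added after seeing the data.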

Additional observations from a re-analysis of the deposited data

How the results depend on the processing

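Alternatives were judged on unadjusted exact p-values for Pou5f1 alone. For upstream H3K27ac, 8 of 10 alternatives kept the call, as did leaving out each of 12 libraries, with stage shares of 99.7% to 100%. Scored as peak present or not, the share was 75% (exact p = 0.0788). For H3K27ac in the gene, 6 of 7 kept it, and leaving out libraries gave 99.7% to 99.9%. With a replicate block of the numbers 1 and 2 within batch DG-3458, which leaves out day 9, the shares were 100% upstream and 100% in the gene (exact p = 0.0833 for both). MEF and day 6 of that batch are all at 0 in both windows, so 0.0833 is the smallest p this block can give, and it says nothing about stability. The numbers are not stated to pair the samples: deviations of same-numbered libraries correlated at -0.002 to 0.061 over 6 pairs of stages. No paired analysis was possible for KLF4 by replicate number because its stages share fewer than 2 numbers within a batch, and permutation within batches stands in for it. Upstream KLF4 had an exact p under the threshold for cover relative to the list (88%, p = 0.0243), permutation within batches (79.8%, p = 0.0167), 2 kb (76.4%, p = 0.0497) and 10 kb (78.4%, p = 0.0487). It did not with the top 50% of peaks (63.8%, exact p = 0.168), equal numbers (67.2%, exact p = 0.123), a q-value of at most 0.01 (67.1%, exact p = 0.147) or without the last 500 bp (74.1%, exact p = 0.112). Leaving out libraries gave 77.1% to 93%, in 8 of 10 cases not past the threshold, and past it without 2i replicate 1 (93%, exact p = 0.0159) and without 2i replicate 2 (85.7%, exact p = 0.0328). The cause was not tested. In the gene, KLF4 passed under none of 6 alternatives, with shares of 26.7% to 74.2% and exact p of 0.1 to 1, and leaving out libraries gave 58.4% to 81.5%.

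Named H3K27ac regions numbered 19, and 12 with the top 50% of peaks, 6 with equal numbers of peaks, 32 with any library and 19 to 27 with a library left out. A stage left with 1 library needs 1 peak. Named KLF4 regions numbered 7, and 4 with the top 50%, 17 with any library and 7 to 13 with a library left out, 13 without 2i replicate 1. Presence of an upstream KLF4 peak gave no value, since all 10 libraries had one, and the gene without its coding exons was not run, as exon positions were not used here. Depth and precipitation efficiency are unknown and limit every list.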
